A study of Homo sapiens with 6 samples.

Results

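The 5 genes described here are secreted, cell-surface and matrix-synthesis genes, THBS1, CEMIP, C7, CHSY1 and ANTXR1, measured in SK-N-BE(2) neuroblastoma cells after knockdown of Prp19, a splicing factor. These 5 genes were chosen by the measured values themselves, as matrix, complement and hyaluronan-related genes with some of the strongest falls with siPrp19 in a count-based fit that kept same-numbered samples together, so their falls are given as a description, with no test. All 5 were among the 14462 genes, of 58302 in the files, with a mean of at least 1 FPKM (fragments scaled by gene length and sequencing depth, so that levels can be compared between genes). SK-N-BE(2) is an established human neuroblastoma cell line grown in MEM/F12 with 10% serum. The 3 samples labelled NC had received a negative control siRNA and the 3 samples labelled siPrp19 a small interfering RNA against Prp19, which is encoded by PRPF19. The labels give 72 h of transfection, while the methods of the study give a shorter time, and the labels do not say which siRNA sequence against Prp19 was used. The methods call the samples biological replicates, and the labels number them 1, 2 and 3 in each group.

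The extracellular matrix is the network of proteins and polysaccharides that cells secrete around themselves, and its makeup affects how cells attach and move. Thrombospondin 1, the product of THBS1, is a secreted matricellular glycoprotein that binds CD47 and CD36 and can activate latent TGF-beta. CEMIP is needed for the breakdown of hyaluronan, a large polysaccharide of the matrix, and C7 is a plasma protein that joins the terminal complement complex, which inserts into membranes. CHSY1 is an enzyme of the Golgi that lengthens chondroitin sulfate chains on proteoglycans. ANTXR1 (also TEM8) is a membrane receptor that binds collagen and anthrax toxin protective antigen.

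THBS1, CEMIP and CHSY1 lie on chromosome 15, C7 on chromosome 5 and ANTXR1 on chromosome 2 (GRCh38, GENCODE release 29). THBS1 (ENSG00000137801) spans 39581079 to 39599466 on the plus strand, CEMIP (ENSG00000103888) 80779343 to 80951776 on the plus strand, and CHSY1 (ENSG00000131873) 101175723 to 101251932 on the minus strand. C7 (ENSG00000112936) spans 40909252 to 40982939 and ANTXR1 (ENSG00000169604) 69013178 to 69249327, both on the plus strand. Chromosome 15 held 483 of the tested genes (3.34%), with a median log2 fold change of −0.02. Of its 455 genes in the paired count-based fit, 28 (6.15%) were called lower, the 3 members among them. The share was 4.3% over all genes (589 of 13705), 6.18% on chromosome 5 and 5.54% on chromosome 2. The calls on chromosomes 5 and 2 include C7 and ANTXR1, and all 5 members were chosen for falls in this kind of fit. The tested genes next to the 3 chromosome 15 members had log2 fold changes from −0.16 for FAM98B (standard error 0.20), left of THBS1, and SELENOS (−0.16, standard error 0.15), right of CHSY1, to 0.11 for AC015712.6 (standard error 0.31), left of CHSY1. No tested neighbour of the 5 genes had a fall as large as its member. The choice of the members for strong falls fixes this to a large degree, and a part of chromosome position was not tested.

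The region from 250 bases before to 50 bases after each start site was taken from RefSeq (GRCh38.p14), in which all 5 genes were matched. It was searched on both strands for GGAATG (the core of the sites of TEAD factors, the DNA-binding partners of YAP), TGACTCA (AP-1) and CACGTG (the E-box bound by MYC family proteins), and on the given strand for TATAAA (the TATA box). The promoters of THBS1, CEMIP and CHSY1 are shown because each holds 1 of these words, in capitals, and that of C7 because it is the poorest in GC.
THBS1, chr15:39580829-39581128, plus strand: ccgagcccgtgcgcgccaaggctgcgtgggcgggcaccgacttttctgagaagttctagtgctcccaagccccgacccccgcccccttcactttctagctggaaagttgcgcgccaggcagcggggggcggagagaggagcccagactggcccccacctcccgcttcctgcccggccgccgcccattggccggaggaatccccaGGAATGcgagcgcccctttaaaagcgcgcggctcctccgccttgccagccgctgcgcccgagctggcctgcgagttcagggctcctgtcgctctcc
CEMIP, chr15:80779120-80779419, plus strand: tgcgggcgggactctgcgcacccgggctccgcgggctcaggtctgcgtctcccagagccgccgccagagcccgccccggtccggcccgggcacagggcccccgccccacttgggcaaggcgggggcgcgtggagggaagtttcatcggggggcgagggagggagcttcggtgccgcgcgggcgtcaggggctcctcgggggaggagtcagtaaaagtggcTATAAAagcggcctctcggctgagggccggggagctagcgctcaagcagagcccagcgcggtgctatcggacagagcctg
CHSY1, chr15:101251999-101252298, minus strand: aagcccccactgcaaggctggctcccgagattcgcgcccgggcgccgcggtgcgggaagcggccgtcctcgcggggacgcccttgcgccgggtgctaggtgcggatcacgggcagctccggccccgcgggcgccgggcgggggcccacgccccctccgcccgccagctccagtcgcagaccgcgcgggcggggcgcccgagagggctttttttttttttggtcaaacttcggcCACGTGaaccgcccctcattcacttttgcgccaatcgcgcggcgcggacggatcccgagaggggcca
C7, chr5:40909247-40909546, plus strand: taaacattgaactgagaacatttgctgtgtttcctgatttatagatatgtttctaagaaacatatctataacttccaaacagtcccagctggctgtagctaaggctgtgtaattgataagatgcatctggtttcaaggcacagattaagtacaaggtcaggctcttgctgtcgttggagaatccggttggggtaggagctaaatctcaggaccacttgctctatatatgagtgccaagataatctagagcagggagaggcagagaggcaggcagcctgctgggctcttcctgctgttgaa

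The capitals in THBS1 mark GGAATG, which starts 46 bases before the start site and is held by 14.0% of the 35116 promoters of the table. Those in CEMIP mark TATAAA, 30 bases before the start site, held by 7.33% of promoters. Those in CHSY1 mark CACGTG, 17 bases before the start site, held by 7.26%. TGACTCA, held by 4.95% of promoters, was not among the letters of any of the 5 genes' windows, and neither the C7 window nor the 2 ANTXR1 windows held any of the 4 words. Each word was thus held by at most 1 of the 5 genes. GC content was 70.0% for THBS1, 73.0% for CEMIP and 73.3% for CHSY1, against a median of 58.7% over all promoters, and 44.3% for C7, which held 2 CpG dinucleotides where the median promoter held 14.

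The knockdown was read first from its target. PRPF19 had 53.1, 53.1 and 64.9 FPKM in NC replicates 1, 2 and 3 and 21.8, 28.5 and 33.6 FPKM in the same-numbered siPrp19 samples, or 49.0% of the NC mean. Between 18302174 and 21046189 reads per NC sample and between 21397992 and 23197210 per siPrp19 sample were recovered from the values of genes whose FPKM correspond to whole reads. The 12 adrenergic neuroblastoma markers, among them HAND2 and GATA3, all had at least 1 FPKM, and their summed level was 2266 to 2412 FPKM with NC and 2153 to 2732 FPKM with siPrp19. Of 12 mesenchymal and fibroblast markers 10 did so, with PRRX1 and COL1A2 below 1 FPKM, and their sum was 498.0 to 608.4 FPKM with NC and 490.3 to 570.0 FPKM with siPrp19. The summed levels of both lists overlapped between the groups. Such a sum rests mostly on the most abundant genes of a list, so it does not show that each marker was unchanged. In the paired count-based fit, FN1 of the mesenchymal and fibroblast list was called lower (log2 fold change −0.35, standard error 0.05, adjusted p = 4.1e-05 by limma voom), and its part in the members' falls was not tested. In these bulk samples, fewer cells that express a gene and less of its RNA per cell cannot be told apart.

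THBS1 had 20.7, 18.7 and 13.70 FPKM in NC replicates 1, 2 and 3 and 12.3, 13.68 and 7.99 FPKM in siPrp19 replicates 1, 2 and 3. The groups did not overlap, but the lowest NC sample and the highest siPrp19 sample lay next to each other, and replicate 3 was the lowest of each group. The mean was 17.7 ± 3.59 FPKM (SD, n = 3) with NC and 11.3 ± 2.96 FPKM (SD, n = 3) with siPrp19, which is 64.0% of NC. Within same-numbered pairs, siPrp19 had 59.3%, 73.3% and 58.3% of the NC level, so the fall was smallest in replicate 2. On the log2(FPKM + 0.1) scale the difference was −0.66 (standard error 0.25 in the fit without a block and 0.08 in the fit blocked by replicate number).

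CEMIP had 9.75, 17.9 and 13.2 FPKM in NC replicates 1, 2 and 3 and 4.94, 11.3 and 9.13 FPKM with siPrp19. The groups overlapped, since siPrp19 replicate 2 lay above NC replicate 1, and replicate 1 was the lowest of each group. The mean was 13.6 ± 4.08 FPKM (SD, n = 3) with NC and 8.44 ± 3.21 FPKM (SD, n = 3) with siPrp19, which is 62.1% of NC. In pairs the siPrp19 level was 50.6%, 62.9% and 69.3% of NC, and the siPrp19 sample was the lower in each. The log2 difference was −0.72 (standard error 0.35 without and 0.10 with the block), with the widest standard error of the 5 genes in both fits.

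C7 had 14.0, 10.6 and 10.2 FPKM in NC replicates 1, 2 and 3 and 7.66, 5.53 and 7.10 FPKM with siPrp19. The groups stood clear of each other, and the SD within groups on the log2 scale, 0.24, was the smallest of the 5 genes. The mean was 11.6 ± 2.06 FPKM (SD, n = 3) with NC and 6.76 ± 1.11 FPKM (SD, n = 3) with siPrp19, which is 58.4% of NC. The pairs gave 54.9%, 52.2% and 69.5% of NC. C7 thus had the largest log2 difference of the 5 genes, −0.77 (standard error 0.19 without and 0.09 with the block), from the fewest reads, 600 to 1590 per sample.

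CHSY1 had 25.5, 36.5 and 18.1 FPKM in NC replicates 1, 2 and 3 and 15.4, 25.1 and 13.5 FPKM with siPrp19. Replicate 2 was the highest and replicate 3 the lowest of each group, and the groups overlapped over much of their range. The mean was 26.7 ± 9.25 FPKM (SD, n = 3) with NC and 18.0 ± 6.25 FPKM (SD, n = 3) with siPrp19, which is 67.4% of NC. The pairs, with 60.2%, 68.8% and 74.4% of NC, each had the siPrp19 sample lower. The log2 difference was −0.56, the smallest of the 5, and its standard error went from 0.32 without to 0.07 with the block.

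ANTXR1 had 20.1, 17.03 and 22.5 FPKM in NC replicates 1, 2 and 3 and 12.1, 10.6 and 17.64 FPKM with siPrp19. Here replicate 3 was the highest of each group, and siPrp19 replicate 3 lay just above NC replicate 2. The mean was 19.9 ± 2.76 FPKM (SD, n = 3) with NC and 13.5 ± 3.70 FPKM (SD, n = 3) with siPrp19, which is 67.7% of NC. The pairs gave 60.3%, 62.4% and 78.3% of NC, and the last was the smallest fall of any member in any pair. The log2 difference was −0.58 (standard error 0.22 without and 0.09 with the block).

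**Figure D1:**
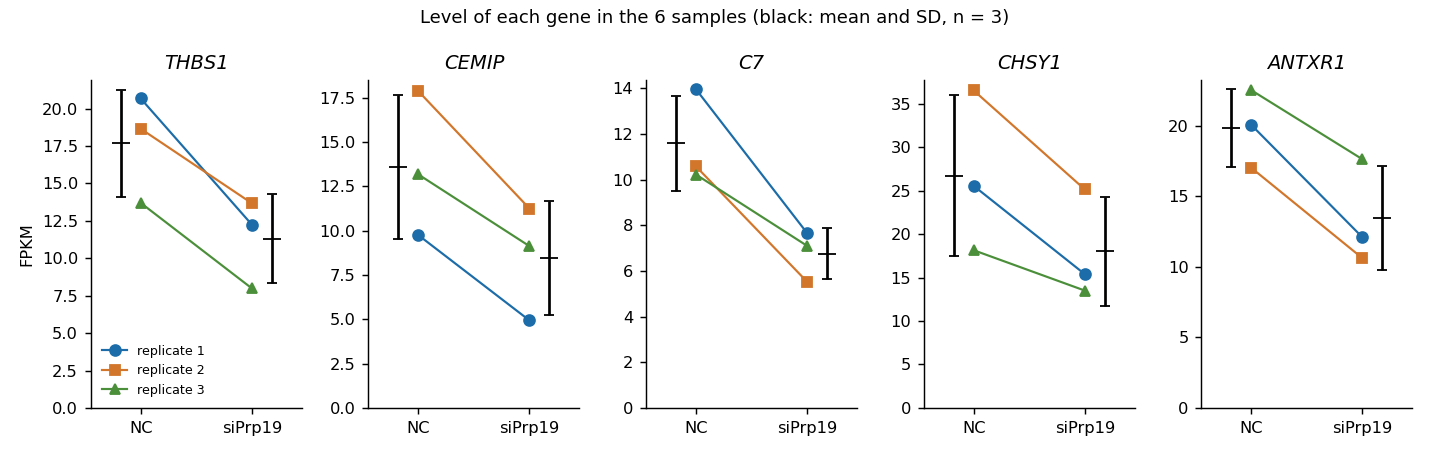
FPKM of each gene in the 6 samples, with same-numbered NC and siPrp19 samples joined and the mean and SD of each group (n = 3) in black. Each of the 15 lines goes down, while the groups of CEMIP, CHSY1 and ANTXR1 overlap.

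In the order of their NC means the genes were CHSY1 (26.7 FPKM), ANTXR1 (19.9 FPKM), THBS1 (17.7 FPKM), CEMIP (13.6 FPKM) and C7 (11.6 FPKM). The NC samples of each neighbouring pair in this order overlapped, so no neighbours were set apart beyond their spread. All 5 were in the upper part of the tested genes, from percentile 64.4 for C7 to percentile 86.2 for CHSY1 by mean FPKM. Their RNAs rest on 600 to 4131 reads per sample.

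The siPrp19 sample was lower in 15 of the 15 pairs, which the choice of members for a paired fall fixes to a large degree. Among all 14462 genes, 21.3% were lower in 3 of 3 pairs. The groups of 2 of the 5 genes, THBS1 and C7, did not overlap, against 2.84% of all genes with every siPrp19 sample below every NC sample. The pair differences ran from −0.97 for CEMIP in replicate 1 to −0.35 for ANTXR1 in replicate 3 on the log2 scale. A fall of at least this smallest size in all 3 pairs was seen for 145 genes, and a rise of this size in all 3 pairs for 104. In replicate 3 the fall was the smallest of the 3 pairs for CEMIP, C7, CHSY1 and ANTXR1, and the largest for THBS1, while that of PRPF19 was −1.28, −0.90 and −0.95 in pairs 1, 2 and 3.

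**Figure D2:**
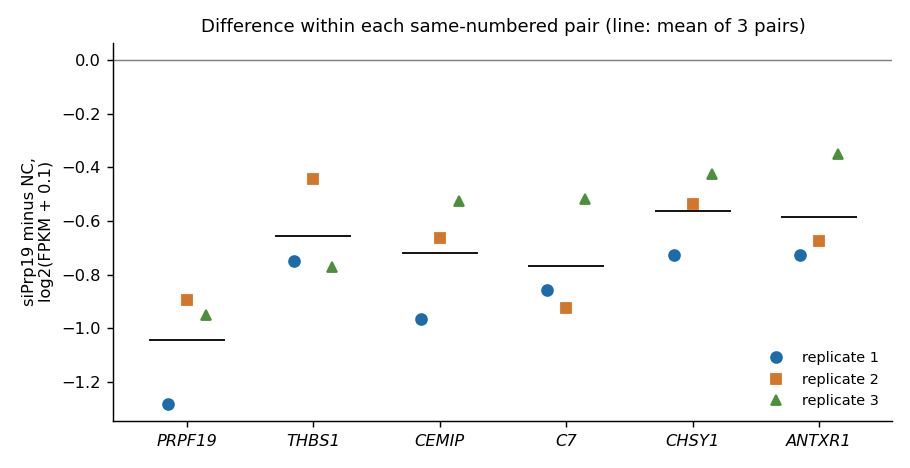
Difference of log2(FPKM + 0.1), siPrp19 minus NC, within each same-numbered pair, with the mean of the 3 pairs as a line. The points of the 5 genes lie between −0.97 and −0.35, and those of PRPF19 between −1.28 and −0.90.

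Over all genes, limma on log2(FPKM + 0.1) without a block called 0 of 14462 genes (0.0%) at an FDR under 0.05, with 225 genes at an unadjusted p under 0.05. The same fit with the replicate number as a block also called 0, with 2265 genes at an unadjusted p under 0.05. Neither fit called PRPF19, the target of the knockdown, at 49.0% of its NC mean with groups that did not overlap. Their 0 calls therefore do not show that genes were unchanged. Limma voom on the reads recovered from FPKM, with the block, is the kind of fit that chose the members. It called 589 of 13705 genes lower (4.3%) and 358 higher (2.61%), while voom without the block called 0. Among the 6943 genes with a fall in this fit, ranked by p, THBS1 was at rank 3, CEMIP at 5, C7 at 6, CHSY1 at 8 and ANTXR1 at 9. The other ranks down to 9 were held by PRPF19, QKI, CCSAP and ATP1B1. The next genes were YWHAZ (log2 fold change −0.48) and ELAVL4 (−0.52), so the 5 genes do not end at a threshold of this fit. Other matrix genes at later ranks were also called lower, among them COL6A3 (−0.54) and CCN2 (−0.99). The median log2 fold change was −0.66 over the 5 genes and −0.0040 over all genes tested.

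**Figure D3:**
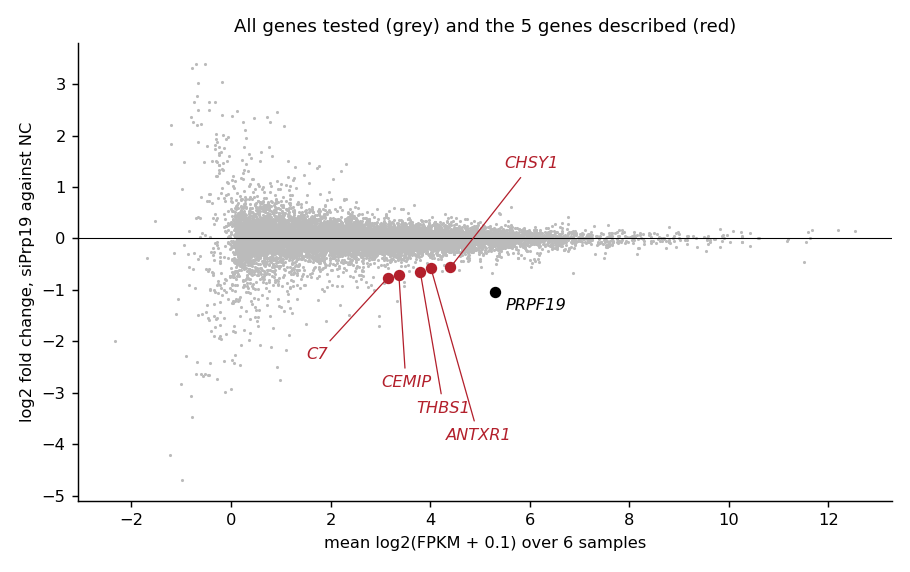
Log2 fold change (siPrp19 against NC) against the mean log2(FPKM + 0.1) for the 14462 genes tested, in grey, with the 5 genes in red and PRPF19 in black. The 5 genes sit between −0.77 and −0.56, at the lower edge of genes with similar levels.

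Samples of the same number shared more than their number. Deviations of same-numbered NC and siPrp19 samples from their group means correlated across genes with r of 0.38, 0.57 and 0.64 for replicates 1, 2 and 3. For CHSY1, replicate 3 lay 0.75 below the mean of replicates 1 and 2 with NC and 0.54 below it with siPrp19 on the log2 scale. For THBS1 these values were 0.52 and 0.69 below. ANTXR1 went the other way, with replicate 3 higher by 0.28 with NC and by 0.63 with siPrp19. CEMIP (−0.0035 with NC, 0.29 with siPrp19) and C7 (−0.25 and 0.12) showed no shared direction. The median size of this difference over all genes was 0.31 with NC and 0.30 with siPrp19, while that of the log2 fold change with siPrp19 was 0.10.

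The range over the 3 replicate numbers, each taken as the mean of its NC and siPrp19 samples, was larger than the fall with siPrp19 for 2 of the 5 genes. It was 1.02 for CEMIP, with replicate 2 highest and replicate 1 lowest, and 0.95 for CHSY1, with replicate 2 highest and replicate 3 lowest. It was 0.61 for THBS1, 0.56 for ANTXR1 and 0.43 for C7, against a median of 0.46 over all genes. The 5 genes therefore had no common order of the replicates, although each was lower with siPrp19 in every pair.

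**Figure D4:**
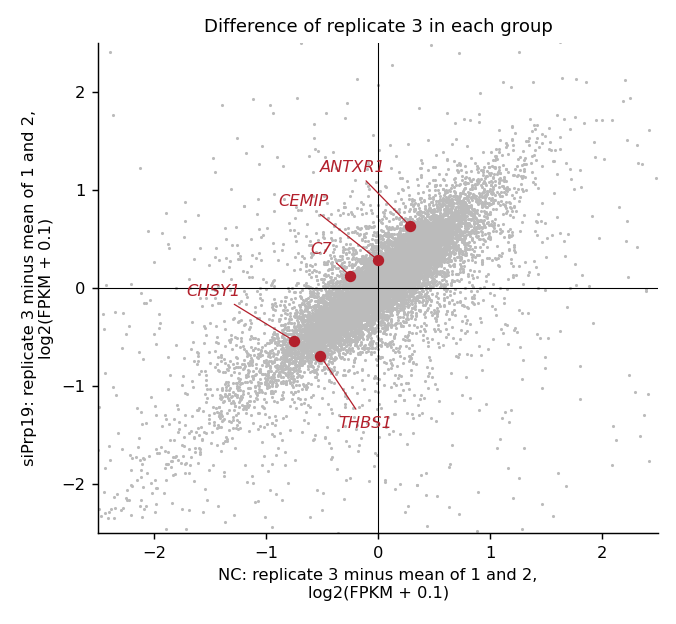
Replicate 3 minus the mean of replicates 1 and 2 on the log2(FPKM + 0.1) scale, in NC (x axis) and siPrp19 (y axis), for all tested genes in grey and the 5 genes in red, with 287 genes outside the axes. THBS1 and CHSY1 lie at the lower left, ANTXR1 at the upper right, and CEMIP and C7 near the centre.

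The genes with the most similar pattern over the 6 samples were found by the root mean square difference of log2 values centred on each gene's mean. This pattern takes in the fall with siPrp19 by which the members were chosen, so other falling genes are favoured. For THBS1 the most similar genes were AL008721.2 (0.11), CXADR (0.12) and CDCA7L (0.14), of which CDCA7L had 20.1 FPKM on average and the others under 2 FPKM. For CEMIP they were FAM207BP (0.15), ATP1B1 (0.17) and YAP1 (0.18). YAP1, the gene of the YAP protein that the study follows, had a mean of 1.59 FPKM with NC and 0.814 FPKM with siPrp19. For C7 they were CHRM4 (0.12), RPL35AP3 (0.14) and NTM (0.17). For CHSY1 they were PLEKHA3 (0.06), PIP4P2 (0.07) and TGFBI (0.10), and TGFBI had 28.6 FPKM on average. For ANTXR1 they were TMSB4X (0.09), KLRA1P (0.10) and BACH2 (0.11), and TMSB4X had 74.5 FPKM on average. No member was among the 3 genes most like another member. The nearest were THBS1 and CHSY1, at 0.27, where CHSY1 was at rank 141 among the genes most like THBS1.

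Related genes were taken from 6 lists by function, without the 5 members. Limma without the block called 0 of their genes in any list, with adjusted p of at least 0.9999 by the Benjamini-Hochberg method. Limma with the block on log2(FPKM + 0.1) also called 0. Since these fits did not call PRPF19 either, this does not show that the list genes were unchanged. The calls are those of limma voom with the replicate block, adjusted over all 13705 genes of that fit, to be read against 4.3% of genes lower and 2.61% higher, and the log2 fold changes printed with an adjusted p are from the same fit. Those printed with a standard error alone are from limma without the block. Over the lists together it called 17 genes, and between 8 and 20 when each same-numbered pair was left out in turn. Genes named beyond the most abundant and the called ones were chosen after their values were seen.

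Among the thrombospondins and their receptors, 0 of 9 genes were called, and THBS2 and CD47 were not in the count-based fit. THBS1 was the thrombospondin with the highest level, followed by THBS3 with 8.59 ± 1.11 FPKM (SD, n = 3) with NC and 8.59 ± 1.32 FPKM (SD, n = 3) with siPrp19. THBS2 and THBS4 had means under 2 FPKM in both groups, and COMP was below 1 FPKM. The log2 fold change was −0.0022 (standard error 0.16) for THBS3 and −0.16 (standard error 0.27) for THBS2. Of the receptors, CD36 was below 1 FPKM, and CD47 had 14.9 ± 1.28 FPKM (SD, n = 3) with NC and 15.6 ± 1.86 FPKM (SD, n = 3) with siPrp19. The most abundant genes of the list were CALR (log2 fold change −0.05, standard error 0.23), which encodes calreticulin, TGFB1 (0.08, standard error 0.84) and the integrin subunit ITGB1 (−0.0049, standard error 0.19). The median over the 11 genes tested was −0.0049.

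Of the genes of hyaluronan synthesis, breakdown and binding, 2 of 9 were called, both lower. HAS2, a hyaluronan synthase, had 8.14, 11.4 and 9.99 FPKM with NC and 6.35, 9.33 and 6.89 FPKM with siPrp19 (log2 fold change −0.39, standard error 0.08, adjusted p = 0.0019 by limma voom). Its groups overlapped, though each pair was lower with siPrp19. VCAN, the hyaluronan-binding proteoglycan versican, had 28.7, 28.4 and 27.98 FPKM with NC and 22.8, 24.6 and 24.05 FPKM with siPrp19, with no overlap (−0.25, standard error 0.05, adjusted p = 0.0022 by limma voom). CEMIP2, the cell-surface relative of CEMIP, had a log2 fold change of −0.08 (standard error 0.23) at 2.60 ± 0.433 FPKM (SD, n = 3) with NC, well under the level of CEMIP. CD44, a hyaluronan receptor, had −0.19 (standard error 0.18) in limma and was not in the count-based fit. UGDH, which makes a sugar precursor of hyaluronan, and HMMR each had −0.14, and neither was called. HAS1, HAS3, HYAL1 and LYVE1 were below 1 FPKM.

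Of the complement genes, only 7 of 25 beside C7 had at least 1 FPKM, and 1 of the 4 in the count-based fit was called. This was CD46, which protects the cell's own membrane from complement, with 26.7, 26.8 and 16.5 FPKM with NC and 23.0, 22.2 and 13.35 FPKM with siPrp19 (log2 fold change −0.26, standard error 0.05, adjusted p = 0.0025 by limma voom). C7 was the only component of the terminal complex above 2 FPKM. C5 had 1.47 ± 0.255 FPKM (SD, n = 3) with NC and 1.48 ± 0.422 FPKM (SD, n = 3) with siPrp19, and C6, C8A, C8B, C8G and C9 were below 1 FPKM. The inhibitor of the terminal complex, CD59, had a log2 fold change of −0.19 (standard error 0.14). CLU, also an inhibitor, had 0.14 (standard error 0.14). CD55, which speeds the decay of complement convertases, had 4.13, 3.75 and 3.52 FPKM with NC and 5.71, 5.17 and 4.22 FPKM with siPrp19, so that every siPrp19 sample lay above every NC sample (0.39, standard error 0.16). CD55 and CD59 were not in the count-based fit.

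Of the genes of chondroitin and dermatan sulfate synthesis, 3 of 13 were called, and all 3 were lower. CSGALNACT2, which starts the chondroitin chain, had a log2 fold change of −0.35 (standard error 0.08, adjusted p = 0.0040 by limma voom). CHPF2, a partner of CHSY1 in chain lengthening, had 12.9, 14.5 and 20.7 FPKM with NC and 7.87, 12.4 and 19.7 FPKM with siPrp19 (−0.30, standard error 0.08, adjusted p = 0.023 by limma voom). The sulfotransferase CHST11 had −0.37 (standard error 0.09, adjusted p = 0.011 by limma voom). In each of these 3 genes the groups overlapped, and each was lower in 3 of 3 pairs. CHPF, the other partner of CHSY1, had a log2 fold change of 0.12 (standard error 0.14) and was not called, nor was B3GAT3 (−0.10, standard error 0.26), which completes the linker of the chain. The related synthase CHSY3 was below 1 FPKM. DSE, an epimerase, had −0.22 (standard error 0.71) and was not in the count-based fit.

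Beside ANTXR1, 2 of the 6 genes of the list of anthrax toxin receptors and collagen VI were called, both lower. COL6A3, a chain of collagen VI, had 6.94, 6.90 and 6.81 FPKM with NC and 4.01, 5.13 and 5.13 FPKM with siPrp19, with no overlap (log2 fold change −0.54, standard error 0.07, adjusted p = 6.3e-06 by limma voom). The other collagen VI chains, COL6A1 (0.07, standard error 0.22) and COL6A2 (0.01, standard error 0.15), were not called. ANTXR2, the second anthrax toxin receptor, had 7.63, 8.46 and 11.2 FPKM with NC and 6.11, 6.30 and 9.84 FPKM with siPrp19 (−0.30, standard error 0.06, adjusted p = 0.0030 by limma voom). Like ANTXR1, it was highest in replicate 3 of each group. MMP14, a membrane-bound matrix protease, had −0.17 (standard error 0.18) and was not called.

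Of 16 matrix glycoproteins in the count-based fit, 8 were called lower and 1 higher, the most of the 6 lists. The median log2 fold change over these 16 genes was −0.23 in limma without the block. CCN2 (CTGF) had 5.92, 5.85 and 1.43 FPKM with NC and 2.30, 3.58 and 0.827 FPKM with siPrp19 (−0.99, standard error 0.15, adjusted p = 1.5e-04 by limma voom). TGFBI, a secreted protein induced by TGF-beta, had 32.9, 42.3 and 23.2 FPKM with NC and 21.8, 32.1 and 19.1 FPKM with siPrp19 (−0.42, standard error 0.06, adjusted p = 2.5e-05 by limma voom). FN1, fibronectin, had 53.1, 67.9 and 28.6 FPKM with NC and 39.4, 54.6 and 23.3 FPKM with siPrp19 (−0.35, standard error 0.05, adjusted p = 4.1e-05 by limma voom). The groups of these 3 genes overlapped, and replicate 3 was the lowest of each group. LTBP2 (−0.49) and LTBP1 (−0.25), latent TGF-beta binding proteins, were also lower, as were CCN1 (−0.28), NID1 (−0.26) and FBN1 (−0.21). AGRN, the proteoglycan agrin, was the gene called higher, from 2.71 ± 0.160 to 3.504 ± 0.531 FPKM (SD, n = 3 each), with a log2 fold change of 0.37 (standard error 0.09, adjusted p = 0.0086 by limma voom). The most abundant secreted glycoprotein, SPARC, had 0.02 (standard error 0.27), and FBLN1 −0.07 (standard error 0.13), and neither was called.

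**Figure D5:**
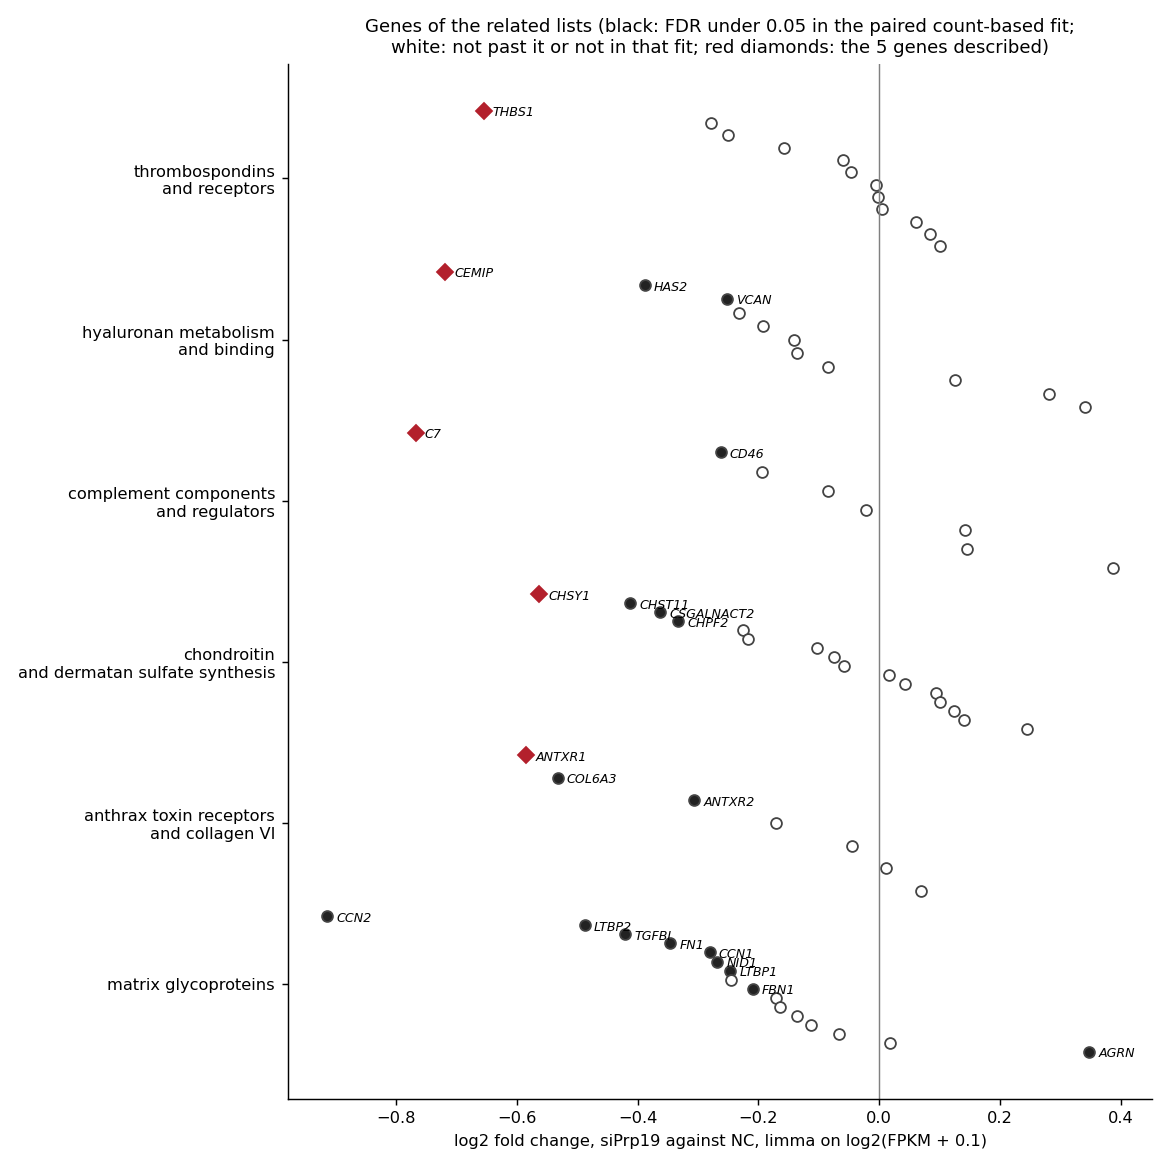
Log2 fold change (siPrp19 against NC, limma on log2(FPKM + 0.1)) of each gene of the 6 lists with a mean of at least 1 FPKM, black where the FDR was under 0.05 in the paired count-based fit. The 5 members, as red diamonds, lie left of all other genes of their lists, which their choice for strong falls fixes to a large degree. ANTXR1 (−0.58) lies close to COL6A3 (−0.53), and CCN2 at −0.91 lies left of all 5.

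The transcripts of the 5 genes were long. At the same FPKM a longer gene rests on more reads in the count-based fit that chose them. The part of this in the choice was not tested. The representative coding transcript (GENCODE 29) had 7775 bases in 22 exons for THBS1, 7357 in 30 for CEMIP, 5859 in 18 for ANTXR1, 4550 in 3 for CHSY1 and 4257 in 18 for C7, against a median of 3220 bases over 11292 tested coding genes. Their 3′UTRs had 4097 bases for THBS1, 3842 for ANTXR1, 2852 for CEMIP, 1665 for CHSY1 and 1366 for C7, each above the median of 1112. The gene of THBS1 spans 18388 bases, under the median of 32748, while that of ANTXR1 spans 236150.

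The 3′UTRs were searched for GATTTGG, the stretch complementary to guide bases 2 to 8 of the siRNA that the methods name first. CHSY1 held 1 match and the other 4 genes none, while 10.6% (C7) to 28.5% (THBS1) of genes with a 3′UTR within 20% of the same length held it. The CHSY1 site, at position 901 of its 3′UTR with the match in capitals, is shown as the only such match.
CHSY1, 3′UTR site: tttcaagaagGATTTGGcattttctct

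TATTTAT, an AU-rich word, was found 3 times in THBS1, 2 times in CEMIP, 1 time each in C7 and CHSY1 and not in ANTXR1. Of genes with a 3′UTR of like length, 31.3% (C7) to 63.6% (THBS1) held it. ACTAAC, a word bound by QKI proteins, was in none of the 5, where 14.4% (C7) to 37.6% (THBS1) of genes of like length held it.

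The library kit named in the labels does not mark strand, so reads of overlapping genes on either strand cannot be told apart. MESD, on the strand opposite to CEMIP and overlapping it, had at most 5.82 FPKM. Every other gene overlapping a member had at most 1.13 FPKM in any sample.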

How the data were processed

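Gene expression was analysed in 3 NC and 3 siPrp19 samples. The authors deposited 1 FPKM value per gene and sample; the submitters' processing notes name HISAT2 2.0.5, featureCounts 1.5.0-p3 and hg38, and the annotation is not given in the sources used here. The FPKM scaling was the authors' own and was kept. Symbols and exon lengths were taken from GENCODE release 29 (58039 of 58302 identifiers found). Multiplying FPKM by exon length and dividing by the value of a single read gave whole reads (within 0.05 reads, or within 0.01% for larger values) in all 6 samples for 36072 of the 37521 matched genes above 0, and these were used as recovered reads. The rest, among them CD44, CD55 and CD59, stayed out of the count-based fit.

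The test was limma 3.58.1 (lmFit and eBayes with trend, run in R 4.3.3) on log2(FPKM + 0.1) for genes averaging 1 FPKM or more, with Benjamini-Hochberg adjustment and no block, since the study names none. This scale understates changes of low genes. The replicate numbers come from the labels, and every same-numbered pair correlated by more than 0.1 in deviations from the group means, so the fits with the number as a block are given too, including limma voom on recovered reads with library sizes taken from the read steps. Both were run on simulated data with changes of 1 log2 unit, larger than the members' falls. The simulated replicate effects were the same in both groups, so the run does not measure how many calls are false here. The members and lists were chosen with earlier results of these data known. Named genes were the 5 members and PRPF19, the 3 most abundant genes of each list, all list genes with an FDR under 0.05 in limma or in voom with the block, and the 3 genes most like each member. Alternatives were a pseudocount of 1, no filter, a mean of at least 5 FPKM, TPM, quantile normalization, eBayes without trend and robust, and samples or pairs left out. DESeq2, which the study names, was not run. The files hold no counts, and the recovered reads were fitted only with limma voom. Python 3.11.15, pandas 2.3.3 and matplotlib 3.10.9 made the tables and plots. Single-gene results of some adrenergic markers are not reported here.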

Additional observations from a re-analysis of the deposited data

How the results depend on the processing

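Under all 19 alternatives the log2 fold changes of THBS1, CEMIP, C7, CHSY1 and ANTXR1 stayed below 0 and moved by less than the spread between replicates. This spread, the SD within groups on the log2 scale, was wide, from 0.24 for C7 to 0.53 for CEMIP. The changes of filter, of eBayes and of the block in limma cannot alter these estimates. The genes were chosen for their falls in these same samples, so this is a description. With 1 sample left out they ranged from −0.83 to −0.43 for THBS1, −0.96 to −0.38 for CEMIP, −0.86 to −0.63 for C7, −0.83 to −0.31 for CHSY1 and −0.80 to −0.43 for ANTXR1, and with 1 pair left out of voom with the replicate block from −0.77 to −0.60, −0.80 to −0.60, −0.90 to −0.70, −0.63 to −0.49 and −0.71 to −0.51. The falls of CEMIP and CHSY1 moved by over 1.5 times without siPrp19 replicate 1 (CEMIP, −0.38) or without NC replicate 2 (CHSY1, −0.31), and that of THBS1 without siPrp19 replicate 3 (−0.43).

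The count of genes at an FDR under 0.05 was 0 in limma and 0 with the replicate block, 1 with eBayes without trend and robust, 124 with the replicate block and a mean of at least 5 FPKM, and 947 in voom on recovered reads with the replicate block. List genes called in these last 2 fits were 2 and 17. With 1 sample or pair left out, the count of genes was 0 to 1244 and that of list genes 0 to 20, both lowest where 1 sample was left out of limma. In voom with the block, leaving out pair 1 gave 261 genes and 8 list genes, and leaving out pair 2 gave 618 and 12, so the number of related genes called depends on the replicates used. With quantile normalization the replicate 3 difference of CEMIP with NC was 0.0489 instead of −0.0035.

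The members rest on 600 to 4131 reads per sample, and the part of depth in their spread was not tested. Genes with a mean below 1 FPKM entered only the limma fit with no filter, which tested 37676 genes and called 0, with 971 at an unadjusted p under 0.05.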

Other observations

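Over the tested coding genes without PRPF19 and the 5 members, the direction of the change went with the length of the 3′UTR, a relation looked for after the members' lengths had been seen. In the quintile of genes with the shortest 3′UTRs (0 to 348 bases), 1.96% of 2148 genes were called lower and 3.58% higher in voom with the replicate block. In the quintile with the longest (2861 bases or more), 10.0% of 2101 genes were called lower and 2.19% higher. The share called lower went up through every quintile (3.07%, 4.59% and 7.09% in between). At the same FPKM a longer transcript rests on more reads, and the part of this in the shares was not tested. The median log2 fold change in limma went from 0.03 in the shortest to −0.04 in the longest, against −0.66 over the 5 genes. Whether 3′UTR length has a part in the falls of THBS1, CEMIP, C7, CHSY1 and ANTXR1 was not tested.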
